A study of Gallus gallus and Anas platyrhynchos and Coturnix japonica with 43 samples.

Results

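The solute carriers are a large class of membrane transport proteins, and 107 of the 6428 named genes on a spotted chicken cDNA array were taken as members here. Members were chosen by gene symbol, with earlier results of these data known. The rule took every symbol of the form SLC, a family number and the letter A. By name, it added SLC35E1 and left out SLC32A1. Carriers with another letter in their symbol were otherwise left out. They were measured by 181 spots that carry 172 cDNA clones. A single clone measured 63 members, 2 clones measured 29, and 3 or more clones measured 15. The symbol rule also admitted 3 genes that are named after carriers and are not carriers themselves. SLC9A3R1 and SLC9A3R2 encode scaffold proteins that bind sodium-proton exchangers, and SLC7A6OS is named for its place on the strand opposite SLC7A6.

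Solute carriers move amino acids, sugars, ions, metals, nucleosides, vitamins and other small molecules across the plasma membrane and the membranes of organelles, either down a gradient or coupled to the flow of an ion. The SLC25 family sits in the inner mitochondrial membrane and exchanges metabolites, nucleotides and phosphate between the matrix and the cytosol. Liver is known for carriers of bile acids, amino acids and fatty acids, muscle for adenine nucleotide and glucose carriers, and the brain for carriers that clear neurotransmitters and supply neurons with fuel.

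The study hybridised 43 arrays of the Del-Mar 14K chicken design, each with Cy3-labelled cDNA of 1 tissue sample and a Cy5-labelled reference pool, to learn whether a chicken array can profile other birds. White turkey, Japanese quail and duck each gave 4 liver and 3 hypothalamus arrays, American kestrel and tree sparrow each gave 3 liver arrays, and chicken gave 4 each of liver, hypothalamus, breast muscle and abdominal fat. The pool was chicken RNA from these 4 chicken tissues in equal parts. Chicken liver, muscle and fat were taken at 6 weeks from broiler cockerels (Ross x Cobb), and hypothalamus at 9 weeks from a line selected for leanness. RNA of muscle and fat was purified on CsCl gradients and RNA of liver and hypothalamus with an RNeasy kit. Every test between chicken tissues given here includes hypothalamus, so tissue, line and age cannot be fully told apart in any of them. Those that include muscle or fat also mix the RNA methods. For the non-chicken species, neither age nor sex is stated in the labels. All of their cDNA was hybridised to chicken clones, so the transcript level and the match of the bird's sequence to the clone cannot be told apart between species. Nothing in the labels says that replicates of a group were different birds, so p-values reflect only how far these samples vary, which may be technical.

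Values are log2 ratios, read as sample over reference pool, centred on the median of each array and averaged over spots, clones and genes. The numerator is not stated. This direction is likely, since the median of 8 liver markers was 0.674 in chicken liver, that of 7 neuron markers 0.787 in chicken hypothalamus and that of 7 muscle markers 0.571 in chicken muscle. On chicken muscle replicate 4 the muscle markers lay at -1.75, against 1.03 to 1.47 on the other muscle arrays. On sparrow liver replicate 1 they lay at 1.58, against -1.39 and -2.07 on the other sparrow arrays. Neuron markers on duck hypothalamus replicate 3 lay at -0.464, against 0.943 and 0.503 on the other duck hypothalamus arrays. Some results that rest on these 3 arrays are given with and without them. Most values of sparrow liver and of duck hypothalamus are given only with them. Some other arrays stood apart from their group by a marker list. Glial markers on chicken liver replicate 3 lay at 0.184, against -1.61 to -0.934 on the other chicken livers. Neuron markers lay at 0.00441 on chicken hypothalamus replicate 3, against 0.624 to 1.17, and at 0.119 on quail liver replicate 2, against -1.94 to -0.783. These are covered by the fits that leave out 1 array. Quail hypothalamus replicate 3 carries another replicate number in its description than in its title, and the title was followed. The liver markers had a median of -1.36 in kestrel liver and -1.40 in sparrow liver, so the labelled tissue does not stand out by its chicken markers on those 6 arrays. Between replicate arrays of a group the members' values correlated with a median r of 0.299 over 57 pairs of arrays, against 0.337 for all genes. Since bulk tissue was measured, fewer cells of a type and less RNA per cell cannot be told apart.

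Across the 4 chicken tissues few solute carriers were called, and the same held for genes of any kind. An overall test of the 4 tissues, limma's moderated F with Benjamini-Hochberg adjustment over all genes, called 3 members: SLC25A12 (adjusted p = 0.0187), SLC51A (0.0262) and SLC25A4 (0.0380). Among all genes 3.53% were called in that test. At an unadjusted p under 0.05 in the same test there were 11 of 107 members, 10.3%, against 10.1% of all genes. The call of SLC25A12 was lost without chicken liver replicate 4, and that of SLC51A without liver replicate 1, 2 or 4 or fat replicate 1 or 2. The call of SLC25A4 was lost in 10 of 16 such fits, those without muscle replicate 1, 2 or 3, fat replicate 1, 2 or 3, liver replicate 1, 2 or 4 or hypothalamus replicate 1. It was also lost with the replicate number as a block (adjusted p = 0.071), without centring (0.129), with only chicken arrays fitted (0.0559), with print block medians removed (0.203) and on single clones (0.0652). The range of the 4 tissue means had a median of 0.532 over the members, against 0.550 over all genes. It exceeded 1 for 13 members, 12.15% of them, against 13.92% of all genes. It exceeded 2 for 3 members, and for 133 of the 6428 genes. The highest tissue mean lay in liver for 32 members, in hypothalamus for 32, in fat for 23 and in muscle for 20, which is 29.9%, 29.9%, 21.5% and 18.7% of the members, against 24.4%, 31.6%, 21.0% and 22.95% of all genes.

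**Figure D1:**
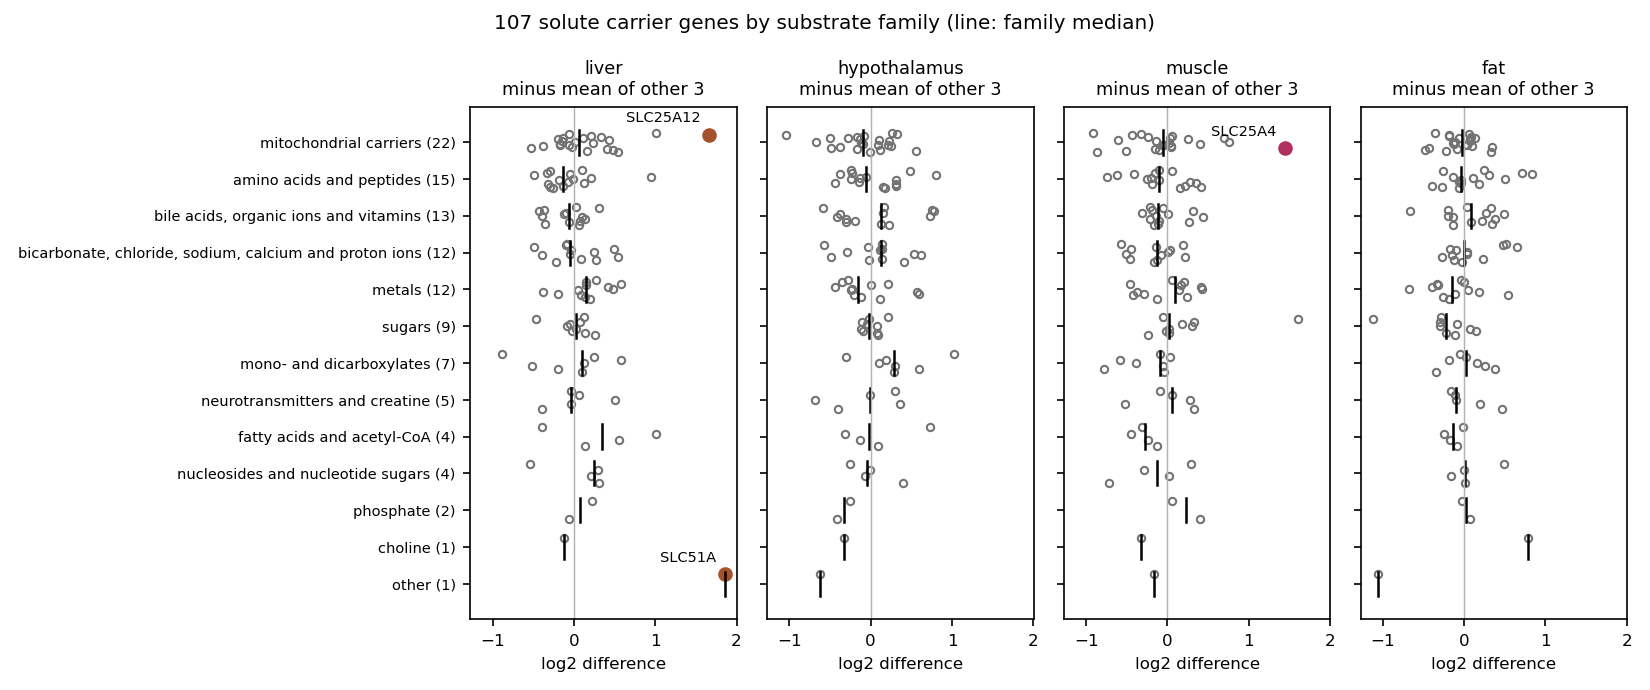
Each circle is 1 of the 107 solute carrier genes, in rows by substrate family (number of members in brackets); the horizontal axis is the log2 difference between a chicken tissue and the mean of the other 3, and the vertical line in a row is the family's median. Filled circles passed the test at an adjusted p under 0.05: SLC25A12 (1.66) and SLC51A (1.86) in liver and SLC25A4 (1.44) in muscle.

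In chicken liver the genes that rose were a bile acid exporter subunit and a mitochondrial amino acid carrier. Against the mean of the other 3 tissues 2 of 107 members were called higher, 1.87% of them, and none lower. Among all genes 1.99% were called, 1.88% higher and 0.109% lower. These 2 were also the members whose liver arrays all lay above every other chicken array, again 1.87% of members, against 1.52% of genes with groups that did not overlap. At an unadjusted p under 0.05 there were 10 members, 9.35%, against 6.78% of all genes. The median of the members' differences was 0.025, against -0.0069 over all genes.

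SLC51A encodes the alpha subunit of the organic solute transporter, which in mammals exports bile acids across the basolateral membrane. Its log2 ratio was 0.53, 0.74, 0.35 and 2.09 on the liver arrays, against -0.84, -0.76, -1.04 and -1.08 in hypothalamus, -0.55, -0.57, -0.57 and -0.68 in muscle and -2.57, -2.21, -0.52 and 0.25 in fat. Every liver array lay above every array of the other tissues, although the fat arrays spread over a wider range than those of any other tissue. Liver averaged 0.93 ± 0.79, hypothalamus -0.93 ± 0.16, muscle -0.59 ± 0.06 and fat -1.26 ± 1.35 (SD, n = 4 each). The difference of liver from the mean of the others was 1.86 (SE 0.42, adjusted p = 0.00698), a 3.62-fold higher ratio. Without liver replicate 4, the highest array, it was 1.47 (adjusted p = 0.158).

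SLC25A12 encodes an aspartate-glutamate carrier of the inner mitochondrial membrane, a part of the malate-aspartate shuttle. In mammals it is the form known from brain and muscle, while its paralogue SLC25A13 (citrin) is the form known from liver. In chicken liver SLC25A12 had log2 ratios of 0.00, 0.43, 0.51 and 1.40. The hypothalamus arrays gave -1.30, -1.40, -1.56 and -1.52, muscle -2.32, -0.69, -0.22 and -0.72, and fat -1.49, -1.05, -0.20 and -0.46. The lowest liver array lay above the highest array of every other tissue, and the hypothalamus arrays were the most uniform. Liver stood 1.66 above the mean of the others (SE 0.37, adjusted p = 0.0051), or 3.17-fold. Without liver replicate 4 the difference was 1.39 (adjusted p = 0.0933). SLC25A13, measured by 4 clones, averaged 0.14 ± 0.41 in liver, against -0.08 ± 0.07 in hypothalamus, 0.03 ± 0.25 in muscle and -0.16 ± 0.24 in fat (SD, n = 4 each), and its liver arrays overlapped those of each other tissue. Its difference of 0.21 did not pass the test. SLC25A12 was measured by 1 clone, and whether that clone also binds the paralogue's cDNA was not tested.

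The next members by difference in liver did not pass the test. SLC27A2, an acyl-CoA synthetase and fatty acid transport protein known from mammalian liver, stood 1.01 above the other tissues (SE 0.29, adjusted p = 0.0640). Its liver arrays read 0.95, 0.93, 0.19 and -0.03, against -1.02 to -0.07 in hypothalamus, -2.00 to 0.33 in muscle and -0.79 to -0.26 in fat, so liver overlapped muscle alone. It was called without muscle replicate 1 (1.10, adjusted p = 0.0315), without muscle replicate 4 (1.11, adjusted p = 0.0225) and without the 3 arrays named above (1.11, adjusted p = 0.0249). Other settings that called it were arrays scaled to equal spread (adjusted p = 0.042), quantile normalisation (0.0333) and print block medians removed (0.0393). SLC25A1, the citrate carrier that feeds cytosolic lipid synthesis, had a difference of 1.01 (adjusted p = 0.296), and SLC38A4, a sodium-coupled neutral amino acid transporter known from mammalian liver, one of 0.95 (adjusted p = 0.201). SLC38A4 gave 0.27, 0.17, 0.82 and 0.68 in liver, against -1.11 to 0.46 in hypothalamus, -1.03 to -0.22 in muscle and -0.96 to 0.20 in fat. It was called with arrays scaled to equal spread (adjusted p = 0.0437) and with quantile normalisation (0.0346). At the low end were the dicarboxylate transporter SLC13A3 (-0.89), the nucleoside transporter SLC29A1 (-0.54), SLC25A4 (-0.53), the monocarboxylate transporter family member SLC16A4 (-0.51) and the amino acid transporter SLC38A2 (-0.49), each with an adjusted p above 0.05.

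**Figure D2:**
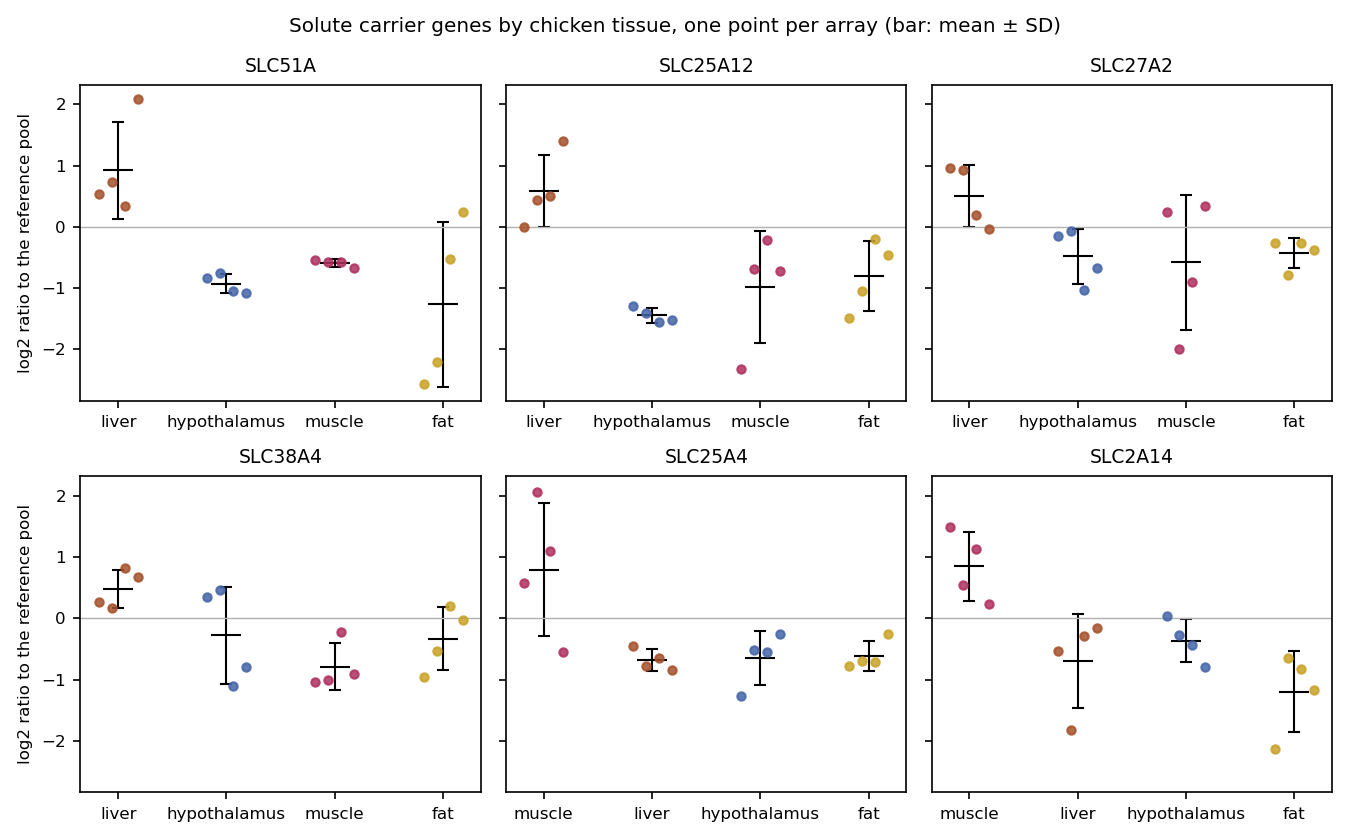
Each point is 1 chicken array and the vertical axis is the centred log2 ratio to the reference pool; horizontal bars are means and whiskers SDs of 4 arrays, with the tissue of interest at the left of each panel. The liver arrays of SLC51A and SLC25A12 lie above all other arrays, and those of SLC27A2 and SLC38A4 do not; in muscle 1 array of SLC25A4, at -0.55, lies among the other tissues.

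In chicken breast muscle an adenine nucleotide carrier was the only member called, in a call that several other settings did not keep: 1 of 107 was higher and none lower, 0.935% of members, against 0.591% of all genes called, 0.482% higher and 0.109% lower. SLC25A4 is the adenine nucleotide translocase that in mammals dominates in heart and skeletal muscle, where it exchanges mitochondrial ATP for ADP. Its muscle arrays read 0.57, 2.06, 1.10 and -0.55, against -0.45, -0.79, -0.65 and -0.84 in liver, -1.27, -0.52, -0.55 and -0.25 in hypothalamus and -0.78, -0.69, -0.72 and -0.25 in fat. The first 3 muscle arrays lay above all others, and the fourth, the one on which muscle markers were low, lay within the range of the other tissues. Muscle averaged 0.80 ± 1.09, against -0.68 ± 0.17 in liver, -0.65 ± 0.44 in hypothalamus and -0.61 ± 0.24 in fat (SD, n = 4 each). The difference was 1.44 (SE 0.33, adjusted p = 0.0223), or 2.72-fold. Without the 3 arrays in doubt it was 1.89 (adjusted p = 0.000284). Without muscle replicate 1, 2 or 3 it was 1.52, 1.02 and 1.34 and no longer called (adjusted p = 0.139, 0.646 and 0.135), and with the replicate number as a block it remained 1.44 with an adjusted p of 0.0532. The call was also lost without centring (1.59, adjusted p = 0.0658) and with print block medians removed (1.26, adjusted p = 0.121).

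The other adenine nucleotide translocases had muscle differences below 0 that did not pass the test. SLC25A6, measured by 4 clones, gave -1.67, -1.33, -0.53 and -0.61 in muscle, against -0.68 to 1.09 in liver, -0.77 to 0.03 in hypothalamus and -0.51 to 0.24 in fat. Its difference was -0.86 (SE 0.29, adjusted p = 0.292), and all 4 clones were below 0, from -0.42 to -1.20. SLC25A5, measured by 2 clones, had a difference of -0.51 (adjusted p = 0.79). These paralogues are alike in sequence, and how far their cDNA clones bind each other's transcripts was not tested.

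SLC2A14, annotated as a facilitative glucose transporter, had the highest difference of any member in muscle and missed the threshold. Muscle arrays gave 1.50, 0.54, 1.13 and 0.24, against -0.53, -1.83, -0.29 and -0.16 in liver, 0.05, -0.27, -0.44 and -0.79 in hypothalamus and -2.13, -0.65, -0.83 and -1.17 in fat. No muscle array overlapped another tissue, which held for this member alone, 0.935% of members, against 0.14% of all genes. The difference was 1.61 (SE 0.44, adjusted p = 0.0935). Without the 3 arrays in doubt it was 1.81 (adjusted p = 0.00103). SLC2A14 was also called with quantile normalisation (adjusted p = 0.00931) and with only chicken arrays fitted (0.0296). On the sparrow liver arrays the same clone read 2.00 on replicate 1, the array with high muscle markers, against -2.00 and -2.43 on the other arrays; the part of muscle RNA in that value was not tested. Next in muscle came the mitochondrial carriers SLC25A29 (0.76), for basic amino acids, and SLC25A20 (0.69), for acylcarnitines, and the folate transporter SLC46A1 (0.44). Lowest were SLC25A1 (-0.92), SLC25A6, the monocarboxylate transporter family member SLC16A6 (-0.78), SLC38A4 (-0.75) and SLC35E1 (-0.72), none of which passed the test.

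No member was called in chicken hypothalamus by limma, where 0.482% of all genes were; 4 members had an unadjusted p under 0.05, 3.74% of them, against 8.07% of all genes. The highest differences were those of the sodium-coupled dicarboxylate transporter SLC13A3 (1.03, SE 0.35, adjusted p = 0.299), SLC38A2 (0.80), the organic ion transporter family member SLC22A23 (0.77), the thiamine transporter SLC19A3 (0.75) and the fatty acid transport protein SLC27A1 (0.73). SLC13A3 was even in hypothalamus, at 0.55, 0.40, 0.22 and 0.40, against -1.73 to -0.01 in liver, -1.61 to 0.30 in muscle and -0.57 to -0.24 in fat. Hypothalamus lay above all liver and fat arrays and overlapped muscle. SLC13A3 was called with arrays scaled to equal spread (adjusted p = 0.0474) and with quantile normalisation (0.0379). The lowest differences were those of SLC25A12 (-1.04), the serotonin transporter SLC6A4 (-0.69), SLC25A29 (-0.67), SLC51A (-0.62) and the folate carrier SLC19A1 (-0.59). SLC6A4, which serotonin neurons use to take the transmitter back up, read -0.01, -0.30, 0.17 and 0.06 in hypothalamus, against 0.03 to 1.36 in liver, 0.28 to 1.29 in muscle and 0.02 to 1.23 in fat. Its adjusted p was 0.659.

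Abdominal fat likewise had no called member by limma, against 1.24% of all genes, 1.18% higher and 0.0622% lower; 8 members, 7.48%, had an unadjusted p under 0.05, against 6.58% of genes. SLC38A10, a putative amino acid transporter measured by 4 clones, came closest with a difference of 0.83 (SE 0.24, adjusted p = 0.0901). It was called with arrays scaled to equal spread (adjusted p = 0.015), with quantile normalisation (0.00637) and with print block medians removed (0.03). Its fat arrays read 1.01, 0.70, 0.62 and 0.26, against -0.40 to 0.58 in liver, -0.39 to -0.15 in hypothalamus and -0.57 to 0.06 in muscle, and its clones differed by 0.34, 1.38, 1.05 and 0.57, all above 0. Behind it came the choline transporter SLC44A1 (0.78), the glutamate transporter SLC1A6 (0.71), the anion exchanger of red cells SLC4A1 (0.65) and the zinc transporter SLC39A13 (0.55). The 2 measured of 7 listed erythrocyte markers had a median of 0.163 in fat, against -0.639 in liver, -0.416 in hypothalamus and -0.622 in muscle, and their part in the value of SLC4A1 was not tested. SLC2A14 (-1.12), SLC51A (-1.06), the zinc transporter SLC30A7 (-0.67), SLC22A23 (-0.66) and the mitochondrial carrier SLC25A47 (-0.49) were lowest and did not pass the test. Without the 3 arrays in doubt SLC2A14 was called lower in fat (-1.19, adjusted p = 0.0429).

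By substrate family, 1 of 22 mitochondrial carriers was called in liver and 1 in muscle, and no member of the families for amino acids and peptides (15), bile acids, organic ions and vitamins (13), ions (12), metals (12), sugars (9) or mono- and dicarboxylates (7) was called in any chicken tissue. Among all genes 1.99% were called in liver, 0.482% in hypothalamus, 0.591% in muscle and 1.24% in fat, so nothing is read from these small counts. SLC51A, called in liver, was counted in none of these families, so the 13 leave out this bile acid exporter subunit. The 15 include SLC7A6OS and the 12 for ions include SLC9A3R1 and SLC9A3R2, which are not carriers. In liver 10 of 12 metal transporters had a difference above 0, with a median of 0.15, and 4 of 15 members of the amino acid and peptide family did, with a median of -0.14. Over all members 52.3% were above 0 there, and over all genes 49.1%. Over the scalings tried, from 9 to 10 of the metal transporters and from 3 to 6 of the amino acid and peptide family were above 0, and neither median changed sign. All scalings use the same arrays, and no rule set beforehand picked these families out, so nothing is read from their signs. Among carriers known from mammalian liver, the glucose transporter SLC2A2 had a liver difference of 0.07, the glucose 6-phosphate transporter SLC37A4 one of 0.13 and the organic anion transporter SLC22A7 one of -0.10, each far from the threshold. Family medians in hypothalamus and muscle depended on centring, since leaving the arrays uncentred moved all genes by -0.212 in the hypothalamus comparison and by 0.15 in that of muscle. The number of members above 0 then was 29 in place of 50 in hypothalamus and 67 in place of 45 in muscle.

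Members with several clones show how far the clones of a gene repeat each other. Across the 43 arrays, 93 pairs of clones from the 44 members with 2 or more clones correlated with a median r of 0.107, and the 64 pairs of the 15 members with 3 or more clones with one of 0.122, both from -0.611 to 0.757, against 0.0034 for 14613 pairs of clones of different members; these r are descriptions and all pairs share the arrays. SLC25A1 had liver differences of 2.03, 1.36 and -0.36 by its 3 clones, so the gene's value of 1.01 averages clones that do not tell the same story. SLC38A4 had liver differences of 1.19, 1.57 and 0.09, and SLC7A3, a cationic amino acid transporter, -1.04, -0.19 and 0.29. In a fit of single clones, adjusted over all clones, clone 1 of SLC25A1 (adjusted p = 0.0336) and clone 2 of SLC38A4 (adjusted p = 0.00251) were called in liver beside the single clones of SLC25A12 and SLC51A. The clones of SLC9A3R1 had liver differences of 0.59, 0.70 and 0.35 and correlated across arrays at 0.498, 0.203 and -0.093. Those of SLC40A1, the iron exporter ferroportin, had liver differences of 0.04, 0.28 and 0.09 and correlated at 0.702, -0.404 and -0.254, so liver differences near each other did not mean clones that moved together. SLC7A5, the light chain of a large neutral amino acid transporter, was measured by 5 clones whose muscle differences ran from -0.07 to 0.74 around a gene value of 0.42 (adjusted p = 0.678). Of the other members with several clones, SLC25A13 ran from -0.51 to 0.68 in liver, the mitochondrial glutamate carrier SLC25A22 from -0.60 to 0.24, the nucleoside transporter SLC29A3 from -0.12 to 0.65, the sugar-phosphate exchanger SLC37A2 from -0.22 to 0.26, SLC37A3 from -0.18 to 0.06, SLC39A13 from -0.33 to 0.32 and the magnesium transporter SLC41A1 from -0.01 to 0.39.

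**Figure D3:**
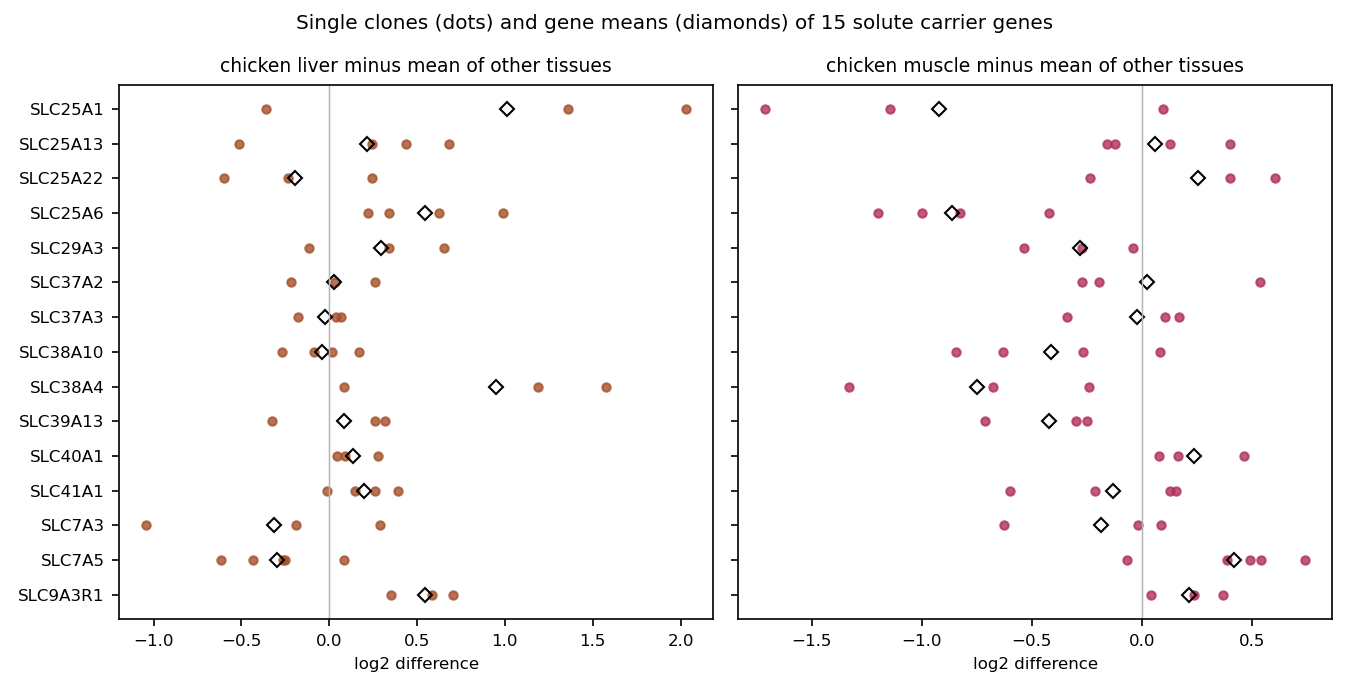
Rows are the 15 members measured by 3 or more clones; dots are single clones and diamonds the gene's mean over clones, as log2 differences of chicken liver (left) and chicken muscle (right) from the mean of the other 3 tissues. The clones of SLC25A1 in liver run from -0.36 to 2.03, and the 4 clones of SLC25A6 in muscle all lie below 0.

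Liver minus hypothalamus is the comparison that chicken shares with turkey, quail and duck. In chicken 1 of 107 members was called, 0.935%, against 1.51% of all genes, of which 1.14% were higher in liver and 0.373% lower: SLC25A12 was 2.03 higher in liver (SE 0.45, adjusted p = 0.0071), which was 1.76 without liver replicate 4 (adjusted p = 0.0661). SLC51A followed at 1.86 (SE 0.52, adjusted p = 0.0575), SLC13A3 at -1.44 (SE 0.43, adjusted p = 0.0945) and SLC27A2 at 0.99 (SE 0.36, adjusted p = 0.250). Apart from fits without 1 array, other settings called SLC51A in 6 cases (adjusted p from 0.00629 to 0.0481). They called SLC13A3 in 3 (0.00559 to 0.0346) and SLC27A2 in 1 (0.0296), and the rest did not. The liver and hypothalamus arrays did not overlap for 7 members, 6.54%, against 5.71% of all genes. SLC25A12, SLC27A2, SLC51A and SLC30A7 were higher in liver, and SLC13A3, SLC27A1 and SLC7A5 higher in hypothalamus.

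No member was called by limma within turkey, quail or duck, where 0.685%, 0.56% and 0.0% of all genes were called, 0.513%, 0.498% and 0.0% higher in liver and 0.171%, 0.0622% and 0.0% lower. At an unadjusted p under 0.05 there were 4 members in turkey (3.74%, against 5.93% of genes), 10 in quail (9.35%, against 8.62%) and 6 in duck (5.61%, against 5.40%). Liver and hypothalamus arrays did not overlap for 5 members in turkey, 9 in quail and 6 in duck, which is 4.67%, 8.41% and 5.61% of members, against 5.37%, 7.58% and 4.7% of all genes. The sign of the difference was that of chicken for 73 of 107 members in turkey, 57 in quail and 42 in duck. These are 68.2%, 53.3% and 39.3% of members, against 63.0%, 51.7% and 49.3% of all genes. With 1 array left out the counts ran from 64 to 77 in turkey, 48 to 73 in quail and 39 to 56 in duck. Without the 3 arrays in doubt, of which 1 is a duck hypothalamus, duck had 56 members of equal sign. The share over all genes was not counted in these fits, so the members are not set above or below all genes. Across members, which are not independent, the differences correlated with those of chicken at r = 0.497 in turkey, 0.324 in quail and -0.0912 in duck, against 0.537, 0.277 and 0.0844 over all genes. Both duck values of r include the hypothalamus array in doubt.

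SLC51A was higher in liver in all 4 birds. Its difference was 1.06 (SE 0.56) in turkey, 1.70 (SE 0.56) in quail and 0.89 (SE 0.56) in duck, against 1.86 in chicken. In quail the livers read 0.85, 0.90, 1.05 and 1.68, against -0.61, -0.47 and -0.66 in hypothalamus, and the groups lay far apart. In duck the livers read 0.17, 0.44, 0.28 and -0.09, against -0.55, -1.43 and -0.10 in hypothalamus, and liver was higher on every array by a narrow margin. In turkey the livers read 1.10, 1.95, 1.43 and -0.93, against -0.75, -0.50 and 0.73 in hypothalamus, so the groups overlapped through liver replicate 4. None of the 3 passed the test over all genes (adjusted p = 0.876, 0.220 and 0.926). SLC51A had liver and hypothalamus arrays that did not overlap in quail, duck and chicken.

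Members in this paragraph were chosen by the size of their difference in chicken. That choice alone favours smaller values in other birds. SLC25A12, the member called in chicken, differed by 0.85 (SE 0.49) in turkey, 0.75 (SE 0.49) in quail and -0.05 (SE 0.49) in duck, against 2.03 in chicken. The difference of these differences from chicken was -1.18 (SE 0.66), -1.28 (SE 0.66) and -2.08 (SE 0.66), with adjusted p of 1.00, 0.931 and 0.550, so none passed the test. Its duck livers read -1.53, 0.05, -2.10 and -0.60, against -1.06, -1.80 and -0.11 in duck hypothalamus. The highest of these hypothalamus values, -0.11, is from replicate 3, an array in doubt, and the duck differences here are given only with it. SLC13A3 was lower in liver in each bird, by -0.10 in turkey, -0.69 in quail and -0.50 in duck, against -1.44 in chicken. SLC27A2 differed by 0.35, 0.50 and -0.72 in turkey, quail and duck, against 0.99 in chicken. The others among the 10 largest in chicken were SLC38A2 (-0.57, -0.26 and -0.17, against -0.97), SLC22A23 (-0.58, -0.83 and 0.42, against -0.90), SLC6A4 (0.15, -0.45 and -0.06, against 0.90), SLC27A1 (-0.44, 0.23 and -0.10, against -0.84), SLC19A3 (0.34, -0.25 and 0.59, against -0.84) and the vitamin C transporter SLC23A2 (0.78, -0.08 and 0.54, against -0.84). Each was measured with SEs of similar size and none passed the test in any bird.

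In all 4 birds 16 members had the same sign, 15.0% of them, against 16.2% of all genes; 10 were higher in liver and 6 in hypothalamus. Those higher in liver were SLC51A, SLC38A4 (0.34 in turkey, 0.55 in quail and 0.92 in duck, against 0.76 in chicken), the carriers of mitochondria SLC25A1, SLC25A6, SLC25A13, SLC25A43 and SLC25A47, the fatty acid transport protein SLC27A4, SLC15A4 and SLC29A3. Those higher in hypothalamus were SLC13A3, SLC38A2, SLC7A3, SLC12A4, SLC25A30 and SLC25A32. The smallest of a member's 4 differences, without its sign, was largest for SLC51A, at 0.89, followed by SLC38A4 at 0.34. It was near 0 for SLC27A4 (0.0136) and SLC25A13 (0.0143) in duck, SLC29A3 (0.0505) in turkey and SLC25A30 (0.0559) in chicken. As the share is near that of all genes, nothing is read from these signs as a set. No member's liver minus hypothalamus difference was called different from chicken's by limma in turkey, quail or duck, where 0.0%, 0.0156% and 0.0311% of genes were. At an unadjusted p under 0.05 there were 2, 3 and 5 members, or 1.87%, 2.80% and 4.67%, against 1.71%, 5.35% and 5.71% of genes.

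**Figure D4:**
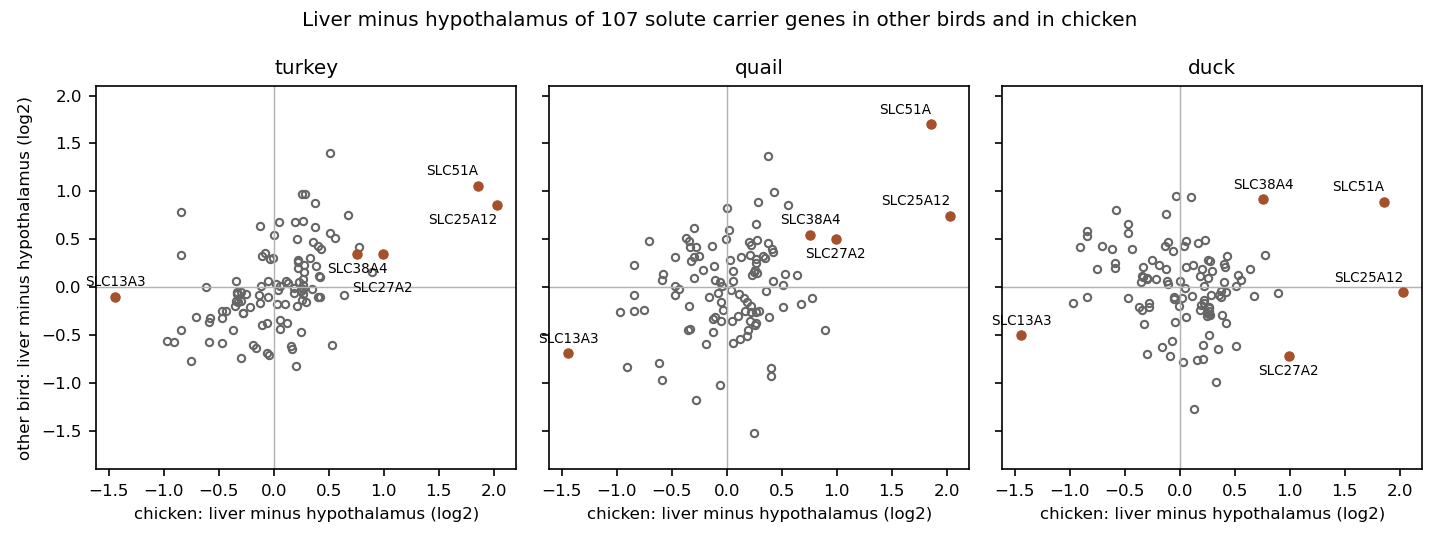
Each circle is 1 of 107 members; the vertical axis is liver minus hypothalamus (log2) in turkey, quail or duck and the horizontal axis the same in chicken. Filled points are named: SLC51A lies in the upper right quadrant in all 3 panels, at 1.06, 1.70 and 0.89, and SLC25A12 lies at -0.05 in duck. Duck values include the hypothalamus array in doubt.

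Between livers of other birds and chicken, SLC35E1 accounted for 4 of the 6 calls among members. This gene was added to the members by name, with earlier results of these data known. Its calls are therefore not read as a trait of the class. These 5 comparisons share the 4 chicken liver arrays, so they are not independent and each is given by its own values. SLC35E1 belongs to the nucleotide sugar transporter family, and its own substrate is not settled. It was measured by 1 clone. Its log2 ratio was -1.55, -2.00, -2.38 and -2.33 in turkey liver, -2.14, -1.91, -2.76 and -2.23 in quail liver, -1.33, -2.03, -2.24 and -2.33 in duck liver, -1.26, -1.25 and -3.38 in kestrel liver and 0.47, -1.46 and -1.09 in sparrow liver, against 0.04, -0.19, 0.12 and 0.78 in chicken liver. All arrays but sparrow liver replicate 1 lay below the chicken livers. The difference was -2.25 in turkey (adjusted p = 0.0288), -2.45 in quail (0.00415), -2.17 in duck (0.00969) and -2.15 in kestrel (0.0128), ratios 4.43- to 5.46-fold lower, with SEs of 0.45 to 0.49, and -0.88 in sparrow (adjusted p = 0.794).

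Outside the liver the same clone was low as well. Hypothalamus gave -1.41, -1.74 and -0.97 in turkey, -1.02, -1.23 and -1.46 in quail and -1.09, -2.67 and -3.31 in duck, against 0.83, 0.28, -0.12 and 0.01 in chicken, with no overlap in any bird. Over all 27 arrays of other birds the clone ran from -3.38 to 0.47, against -1.76 to 0.83 over the 16 chicken arrays. Of the 27 arrays, 13 lay below all chicken arrays, so the rest overlapped the chicken range. The median was -1.74 over the other birds, against -0.00997 over chicken. This difference of -1.73 ranked 13 from the lowest among 6428 genes and was the largest of any member. The next lowest were those of SLC39A13 at -0.627 and SLC22A7 at -0.598. As SLC35E1 was added by name with earlier results known, nothing is read from its rank or its lack of overlap. The call of SLC35E1 in quail liver held with each single array of both groups left out in turn. In duck it was lost without chicken liver replicate 4 or duck liver replicate 3 (adjusted p = 0.0711 and 0.0504), and in kestrel without chicken liver replicate 4 or kestrel liver replicate 3 (0.0799 and 0.306). In turkey it was lost without any of the 4 chicken livers or without turkey liver replicate 3 or 4 (0.0651 to 0.239), and also without centring (0.139) or with arrays scaled to equal spread (0.137). In a fit of kestrel and chicken liver alone the kestrel call was lost (0.0686).

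Apart from SLC35E1, kestrel liver was the only liver with called members, for a total of 3 lower and none higher, 2.80% of members, against 1.21% of all genes called, 1.18% lower and 0.0311% higher. These 3 include SLC35E1, which was added by name. SLC38A4 read -0.79, -2.21 and -1.16 in kestrel liver, against 0.27, 0.17, 0.82 and 0.68 in chicken liver, with no overlap and a difference of -1.87 (SE 0.43, adjusted p = 0.0146). SLC25A12 read -0.93, -0.96 and -1.98 in kestrel liver, all below the lowest chicken liver at 0.00, a difference of -1.88 (SE 0.49, adjusted p = 0.0396). The call of SLC38A4 was lost without chicken liver replicate 3 or 4 or kestrel liver replicate 2 or 3 (adjusted p from 0.0530 to 0.212). That of SLC25A12 was lost without any 1 of 6 arrays, which are chicken liver replicates 2, 3 and 4 and the 3 kestrel livers (0.0525 to 0.313), and likewise without centring (0.0643), with arrays scaled to equal spread (0.12), with quantile normalisation (0.0621), with only kestrel and chicken liver fitted (0.0514) and with the replicate number as a block (0.0702). Marker lists differed between these groups too. Liver markers lay at -1.36 in kestrel liver and 0.674 in chicken liver, the 2 erythrocyte markers at 1.04 and -0.639, endothelial markers at -0.875 and -0.235, leukocyte markers at -0.534 and -0.109 and adipocyte markers at -1.42 and -0.957. Their part in these values was not tested.

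Single clones of SLC38A4 were unequal in kestrel liver, with differences of -2.08, -3.12 and -0.42, and in sparrow liver, with -1.92, -2.28 and -0.12, against chicken liver. Clone 2, the one called in chicken liver, was called lower in kestrel (adjusted p = 1.42e-05), sparrow (0.00176) and duck (-1.65, adjusted p = 0.0276) in the fit of single clones. The same chicken livers enter that first call and these comparisons, so the choice of clone favours lower values in other birds. Of 18547 clones or probes, 244 were called in kestrel, 156 in sparrow and 182 in duck, in either direction. For the gene, the sparrow difference was -1.44 (adjusted p = 0.122). SLC39A13, a zinc transporter, had 1 such clone of 3: clone 2 differed by -1.98 in quail (adjusted p = 0.0147) and -2.14 in duck (0.00359), while clones 1 and 3 differed by 0.08 and -0.59 in quail and by -0.01 and -0.13 in duck. No member was called in sparrow liver by limma, where 0.793% of all genes were; 6 members, 5.61%, had an unadjusted p under 0.05, against 7.16% of genes. In turkey, quail and duck liver SLC35E1 was the only called member, 0.935% of them, against 0.0467%, 0.498% and 0.762% of genes called lower. Since this gene was added by name, nothing is read from these shares. No member was called higher in any of the 5 livers, where at most 0.0311% of genes were. Livers did not overlap those of chicken for 5 members in turkey, 6 in quail, 10 in duck, 12 in kestrel and 13 in sparrow. These are 4.67%, 5.61%, 9.35%, 11.2% and 12.1% of members, against 3.31%, 5.01%, 6.24%, 8.37% and 6.6% of all genes. Lower than in chicken were 4, 5, 8, 9 and 7 of these members. The split by direction was not counted over all genes, so nothing is read from it. SLC16A4 had livers above chicken's without overlap in turkey, duck, kestrel and sparrow; it read 1.27, 0.82, 1.98 and 1.43 in duck liver, against -0.15, -0.81, 0.32 and 0.23 in chicken liver. Its duck difference of 1.48 was not called (adjusted p = 0.151), and was called in a fit of both duck and chicken liver alone (adjusted p = 0.0467). In the other direction, SLC9A3R2 had livers below chicken's without overlap in turkey, duck and sparrow. SLC27A4 was lower in duck liver without overlap, by -1.58, and was not called. It was called by limma in 4 other settings (adjusted p from 0.0244 to 0.0433), among them without the 3 arrays in doubt (0.0342).

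**Figure D5:**
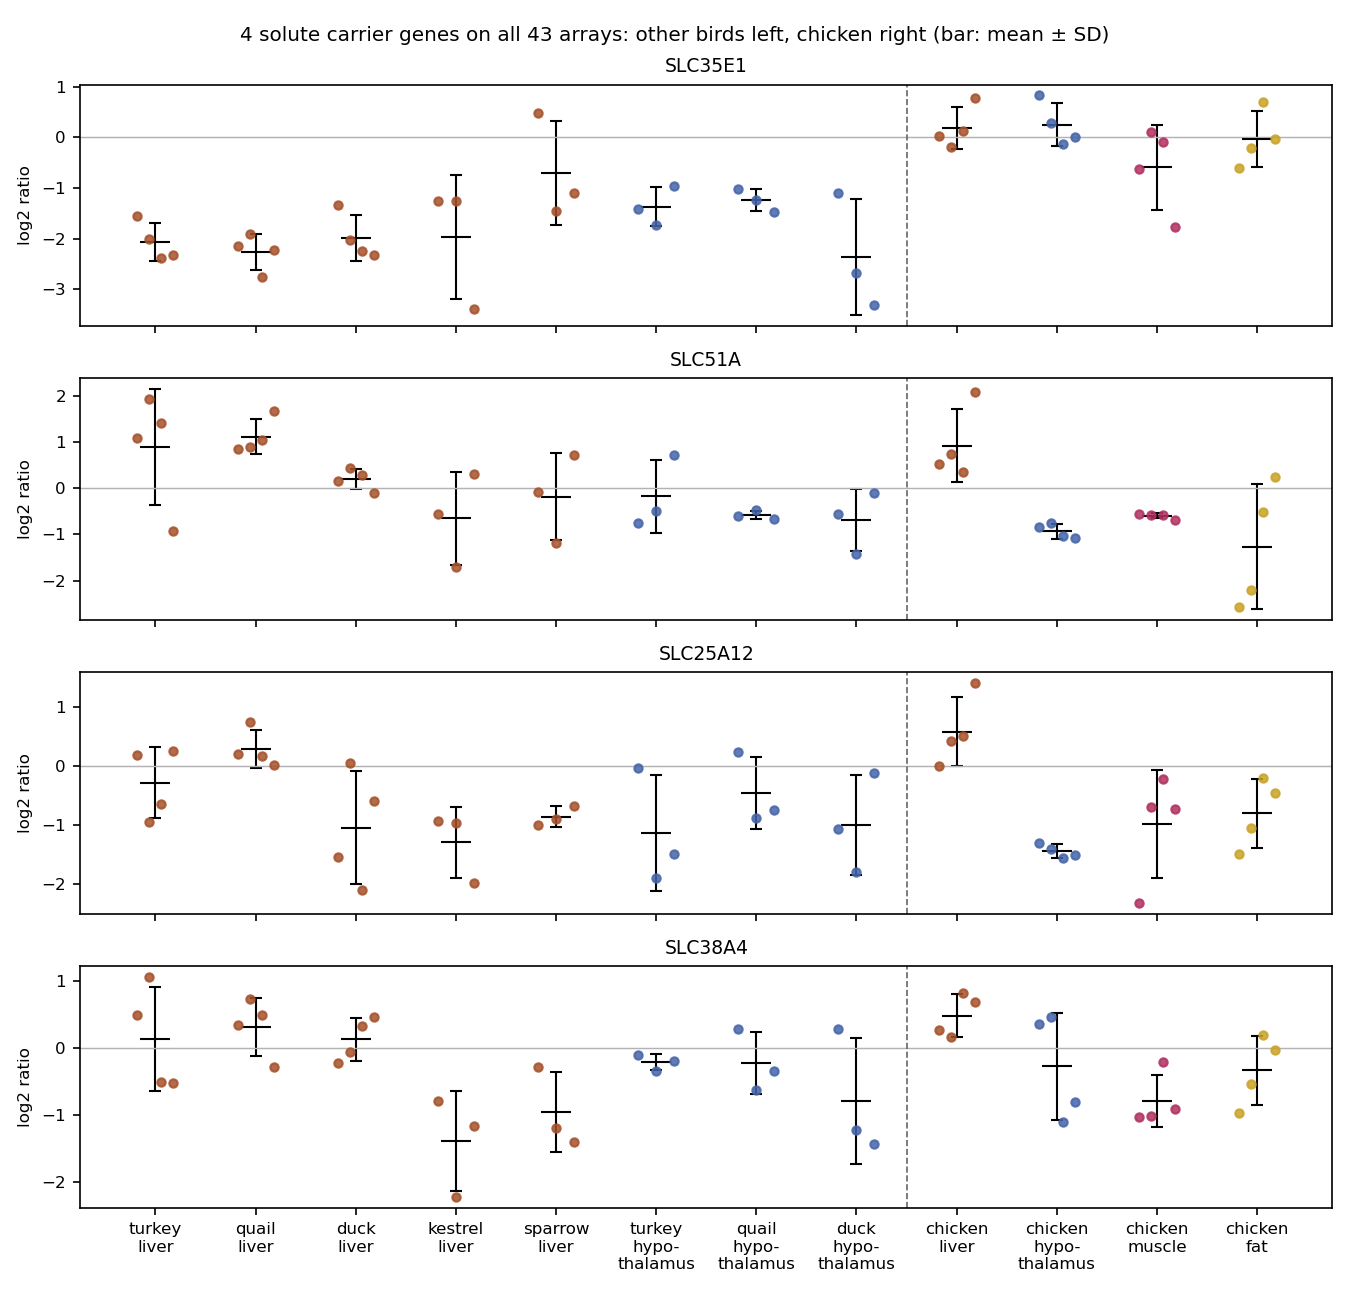
Each point is 1 of 43 arrays, with other birds left of the dashed line and chicken right of it; the vertical axis is the centred log2 ratio and bars are means ± SD. SLC35E1 lies below 0 on every array of another bird but sparrow liver replicate 1 (0.47), while SLC51A is higher in liver than in hypothalamus in turkey, quail and duck.

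Of 50 measured genes for organic anion transporting polypeptides, ABC transporters, ion-pumping ATPases, aquaporins, mitochondrial channels and uncoupling proteins, 1 was called in the 4 chicken tissue comparisons. Among all genes 1.99% were called in liver, 0.482% in hypothalamus, 0.591% in muscle and 1.24% in fat, so nothing is read from this count. SLCO1A2, an organic anion transporting polypeptide that takes up bile acids in mammals, was 1.96 higher in chicken liver than in the other tissues (adjusted p = 9.28e-05), with means of 0.909 in liver, against -1.04 in hypothalamus, -1.07 in muscle and -1.04 in fat. Liver minus hypothalamus was 0.71 in turkey, -0.55 in quail and 0.19 in duck, against 1.95 in chicken (adjusted p = 0.891, 0.808 and 0.983, against 0.00319). SLCO1A2 was named for its call in chicken, which favours smaller values in other birds.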

How the data were processed

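The authors deposited 1 value per spot and array, a linear ratio of the Cy3 and Cy5 channels judging by its range, since all 19200 values of each of 43 arrays were above 0 and array medians ran from 0.535 to 1.83. Per the labels, samples carried Cy3 and the chicken reference pool Cy5 on every array. How the images were read and the ratios normalized is not given in the sources used here, nor are the numerator, spot intensities or genome build. Signal over background is thus unknown, and precision is limited by how many arrays each group has. Gene symbols came from the platform annotation: 10601 spots had 1 symbol, 0 several and 8599 none. All 107 members matched the current RefSeq gene table.

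Here ratios were put on the log2 scale, centred on each array's median and averaged over spots of a clone (18547 clones or probes) and clones of a gene (6428 genes). The 12 groups were fitted together over the 43 arrays with limma 3.58.1 (R 4.3.3) and eBayes, which left 31 residual degrees of freedom. Benjamini-Hochberg adjustment ran over all genes of a contrast, and calls were made at an adjusted p under 0.05. The script was tested on simulated data. Correlations are Pearson's. Tables and plots used Python 3.11.15, numpy 2.4.6, pandas 2.3.3 and matplotlib 3.10.9.

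The members, families and other lists were chosen with earlier results of these data known, and so were the 3 arrays in doubt. Named are members called in any contrast, the 5 highest and 5 lowest in each chicken tissue, the 10 largest liver minus hypothalamus differences in chicken, members with 3 or more clones, and those with a sample far from its group; other members were named after their values were seen. Replicate numbers were checked for pairing. Same-numbered turkey livers and hypothalami deviated together (r from 0.257 to 0.577 in 3 pairs), as did chicken muscle and fat (0.171 to 0.362 in 4 pairs). The other pairs of groups had at least 1 correlation under 0.1. Chicken hypothalamus deviated in the opposite direction from same-numbered chicken liver (-0.58 to -0.03), muscle (-0.37 to -0.12) and fat (-0.67 to -0.09). So did chicken liver from turkey liver (-0.44 to -0.11) and quail liver (-0.40 to -0.03). Alternatives were other scalings, the median over clones, single clones, fewer groups in the fit, a replicate block, the 3 arrays left out, each array left out and, added after the data were seen, removal of print block medians. No sequence is shown, since none was in the tables used here.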

Additional observations from a re-analysis of the deposited data

Results flagged for a closer look

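Among the 40 members named by the rule, 280 groups of 4 arrays were checked for a sample far from the other 3, and 16 were found; chance alone gives about 1 in 20 groups. Each is given with its log2 ratio and the range of the other 3 arrays of its group. In chicken liver, replicate 3 stood apart for SLC25A20 (-1.16, others 0.56 to 0.65) and SLC9A3R1 (-0.31, others 0.54 to 0.63). In chicken fat, replicate 3 stood apart for SLC16A6 (1.67, others 0.23 to 0.39) and SLC19A1 (-0.30, others 0.54 to 0.63), and replicate 4 for SLC25A4 (-0.25, others -0.78 to -0.69). In chicken hypothalamus these were replicate 2 for SLC7A3 (0.63, others 0.13 to 0.20) and replicate 3 for SLC7A5 (0.74, others -0.04 to 0.09). In chicken muscle it was replicate 3 for SLC38A4 (-0.22, others -1.03 to -0.91). In quail liver, replicate 2 stood apart for SLC39A13 (-0.67, others -1.36 to -1.33) and SLC6A4 (-0.72, others 0.27 to 0.32), and replicate 1 for SLC7A3 (0.18, others -0.04 to -0.01). In duck liver, replicate 1 stood apart for SLC25A29 (0.51, others -0.32 to -0.23), replicate 2 for SLC27A2 (-1.26, others -0.23 to -0.08) and SLC7A5 (-0.63, others 0.19 to 0.27), replicate 3 for SLC25A47 (0.53, others -0.05 to -0.01) and replicate 4 for SLC37A2 (0.0843, others -0.22 to -0.18).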

How the results depend on the processing

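The 13 calls among members, those of the test of 4 tissues included, were lost in 58 of 266 alternative values, 42 of them with 1 array left out; the 10 calls in single comparisons were lost in 37 of 191 and the 3 in the test of 4 tissues in 21 of 75. Uncalled named values gained a call in 32 alternatives, and 0 of the 56 named differences changed sign in any. For the fit on clones, only the clone of a member with the lowest adjusted p entered these counts. A clone of opposite sign could thus go uncounted, as did 1 clone of SLC25A1 in liver. Counts of called members moved as follows. In the test of 4 tissues (3) they were 5 with equal spread of arrays, 6 with quantile normalisation and 5 on clones. They were 4 there with the median over clones and without the 3 arrays in doubt. Without centring, with the replicate block and with print block medians removed they were 2. Liver (2) gave 4 with equal spread, with quantile normalisation and on clones. It gave 3 without the 3 arrays in doubt and with print block medians removed. Hypothalamus (0) gave 1 and fat (0) 1 with equal spread and with quantile normalisation, and fat also 1 without the 3 arrays in doubt and with print block medians removed. Muscle (1) gave 0 without centring and with print block medians removed, and 2 with quantile normalisation, with only the groups compared and without the 3 arrays in doubt. Chicken liver minus hypothalamus (1) gave 2 without centring, with only the groups compared and on clones, and 3 with equal spread, quantile normalisation and print block medians removed; that of quail (0) gave 1 with print block medians removed. Against chicken liver, turkey (1) gave 0 without centring and with equal spread, quail (1) gave 2 on clones, sparrow (0) 1 on clones and kestrel (3) 1 with only the groups compared. Duck (1) gave 2 with equal spread, quantile normalisation, print block medians removed and without the 3 arrays in doubt, and 3 on clones and with only the groups compared. With the replicate block, chicken liver minus hypothalamus gave 3, muscle 0 and kestrel against chicken liver 2, and the pairing changed no call within turkey (0). The causes were not tested.

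Leaving out 1 array gave 0 to 3 in the test of 4 tissues, 0 to 3 in liver, 0 to 1 in muscle and in fat, 0 to 3 in chicken liver minus hypothalamus, and against chicken liver 0 to 1 in turkey, 0 to 2 in duck and 0 to 3 in kestrel. Equal signs then ran from 64 to 77 in turkey, 48 to 73 in quail and 39 to 56 in duck. Leaving arrays uncentred moved all genes by 0.186 in chicken, -0.229 in quail and 0.262 in duck liver minus hypothalamus. Over all genes, counts called ran from 168 without centring to 575 on clones in the test of 4 tissues, from 104 to 317 in liver, from 14 without centring to 114 with quantile normalisation in hypothalamus, from 18 with the replicate block to 87 without the 3 arrays in doubt in muscle, and from 53 to 175 in fat. Against chicken liver they ran from 0 to 10 in turkey, 7 to 76 in quail, 25 to 182 in duck, 32 to 244 in kestrel and 28 to 156 in sparrow. Liver minus hypothalamus ran from 86 to 254 in chicken, 15 to 105 in turkey, 2 to 102 in quail and 0 to 3 in duck. The counts on clones are of clones, not of genes.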
